A study of Rattus norvegicus with 33 samples.

Results

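The first 12 h of liver injury by α-naphthylisothiocyanate (ANIT), a compound that injures bile ducts and stops bile flow, were followed in rat plasma by small RNA sequencing. The data are 4 libraries, 1 each from 3, 6 and 12 h after dosing and 1 from the vehicle group, of 29 distinct libraries in a series of 6 liver toxicants. They carry 6 of the 33 labelled samples, since the vehicle and 12 h groups have 2 labelled samples each but 1 column of counts. The labels do not say whether such a column is the sum, the mean or 1 of the 2 samples, and it is treated below as 1 library. A miRNA was taken as measured when at least 1 of these 4 libraries held 20 reads, which 99 of the 362 listed miRNAs did. All rats were male Sprague-Dawley animals bought at 6 weeks of age and kept for 1 week before treatment, with 5 rats per group. Treated rats received 150 mg/kg ANIT by stomach in 5 mL/kg corn oil, and the vehicle group, labelled 0 h, received corn oil. Blood was taken from the descending aorta into EDTA under isoflurane. The sources used here do not say whether a library holds the plasma of 1 rat or of pooled rats. Serum chemistry was not analysed here, so the word cholestasis rests on the compound and the study's own naming.

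ANIT is conjugated to glutathione in hepatocytes, carried into bile and set free there, where it damages the epithelial cells that line the bile ducts. Hepatocytes and duct cells contain different miRNAs. miR-122 is the dominant miRNA of the hepatocyte, while the miR-200 family is made in epithelia, the bile duct among them, and is known for keeping cells epithelial by repressing ZEB1 and ZEB2. miRNAs that leave injured cells circulate in plasma bound to proteins or inside vesicles, beside a large background from blood cells. Plasma is a mixture, so the number of source cells, the RNA that each released and its clearance cannot be told apart.

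The mature sequences below are those of the miRNAs on which the results turn, from RefSeq for the rat assembly GRCr8, which lists 85 of the 99 measured miRNAs. Each is written 5′ to 3′ with the seed, bases 2 to 8, in capitals. The seed is the stretch that pairs with target mRNAs, so miRNAs with 1 seed share most predicted targets. The liver and gut miRNAs are shown because miR-192-5p and miR-215 have the same seed.
miR-122-5p: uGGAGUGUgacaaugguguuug
miR-192-5p: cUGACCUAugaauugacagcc
miR-215: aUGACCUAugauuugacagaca
miR-194-5p: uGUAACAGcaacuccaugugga
The epithelial miRNAs come from the miR-200 family and the miR-183 cluster. miR-200a-3p, miR-200b-3p and miR-429 are named here without sequence.
miR-200c-3p: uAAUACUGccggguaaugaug
miR-182: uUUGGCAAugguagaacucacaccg
miR-183-5p: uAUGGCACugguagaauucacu
The muscle miRNAs share the seed GGAAUGU. Counted from 1 at the 5′ end, with the miR-1-3p base first, miR-1b carries G17A, and miR-206-3p carries A11G, A21G and U22G.
miR-1-3p: uGGAAUGUaaagaaguguguau
miR-1b: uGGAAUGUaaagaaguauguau
miR-206-3p: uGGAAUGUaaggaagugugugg
The let-7 family is shown because its members moved apart although all share the seed GAGGUAG. Counted in the same way from let-7a-5p, let-7c-5p carries A19G and let-7b-5p carries A17G and A19G.
let-7a-5p: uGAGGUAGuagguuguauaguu
let-7b-5p: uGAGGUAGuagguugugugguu
let-7c-5p: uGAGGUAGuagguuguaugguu
let-7f-5p: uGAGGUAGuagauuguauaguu
miR-98-5p: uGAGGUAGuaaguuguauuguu
The miR-17 family shares the seed AAAGUGC. Relative to miR-17-5p, miR-20a-5p carries C1U and C12U, and miR-93-5p carries U10G, A11U, C12U and A13C.
miR-17-5p: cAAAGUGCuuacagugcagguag
miR-20a-5p: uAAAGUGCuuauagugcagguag
miR-93-5p: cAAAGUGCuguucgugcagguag
Some of these sequences differ by a single base. The sources used here do not say how the authors' counting placed reads that match more than 1 of them, so the split between such near-identical members is uncertain.

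The libraries held 50319 miRNA reads in vehicle, 43378 at 3 h, 69113 at 6 h and 69175 at 12 h, with 227 to 250 miRNAs detected in each. A count of 0 allows a share of up to 0.00434% to 0.00692% of reads (3 reads), depending on the library. miR-148a-3p, which liver and many other tissues make, was the most abundant miRNA in vehicle (32.9% of reads), at 3 h (44.4%) and at 6 h (43.3%), whereas miR-122-5p led at 12 h (35.6%). Blood markers were present in every library, among them miR-451-5p and miR-486 of red cells and miR-223-3p and miR-150-5p of leukocytes, all of them known in plasma. The ratio of miR-451-5p to miR-23a-3p reads, a usual gauge of red cell lysis, was 0.444 in vehicle, 0.212 at 3 h, 0.172 at 6 h and 0.199 at 12 h, and 0.280 to 0.458 in the other 4 vehicle libraries of the series. Each group has 1 column of counts, so no value here has a replicate error and no p-value is given. Ratios are counts scaled by trimmed mean of M values (TMM), treated over vehicle. The range in brackets after a fold is the exact 95% counting interval, which leaves out differences between rats, library preparation and PCR copies and takes every column, those of vehicle and 12 h too, as the plain read count of 1 library. A miRNA is called higher or lower when it differed at least 2-fold and the interval excluded 1.

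By this rule 12 miRNAs were higher at 3 h (12.1% of the 99 measured) and 13 lower (13.1%). At 6 h 25 were higher (25.3%) and 26 lower (26.3%), and at 12 h 24 were higher (24.2%) and 18 lower (18.2%). All 3 comparisons share the 1 vehicle library. The split depended on the scaling. With total reads as the scale, the 3 h library had 7 higher and 22 lower, the 6 h library 13 higher against 32 lower, and the 12 h library 13 higher against 38 lower. With TMM over all 362 listed miRNAs, the 3 h library had 22 higher against 8 lower, the 6 h library 29 against 23, and the 12 h library 31 against 12. The median log2 ratio over the 99 miRNAs was 0.07 at 3 h, 0.18 at 6 h and −0.01 at 12 h, and scaling by total reads moved it by −0.28, −0.48 and −0.45. Of the 99, 12 had 20 to 29 reads in their highest library, and 31 further miRNAs with 10 to 19 fell just short. The minimum of 20 reads shapes these counts, since 14 miRNAs were under it in vehicle (4, 7 and 11 of them called higher at 3, 6 and 12 h) and 10 reached it in vehicle alone (8, 9 and 8 of them called lower).

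**Figure D1:**
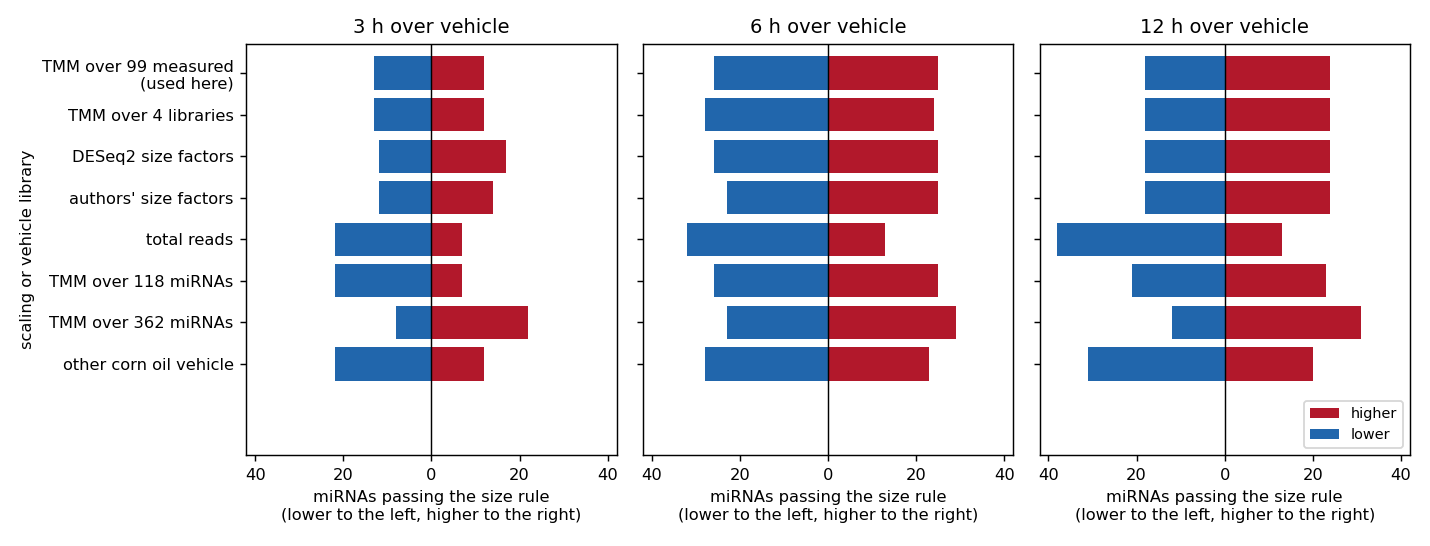
miRNAs called higher (red, to the right) and lower (blue, to the left) of the 99 measured at 3, 6 and 12 h over vehicle, on the horizontal axes, under 7 scalings and against another corn oil vehicle, 1 row each. At 3 h the split runs between 7 higher with 22 lower under total reads and 22 higher with 8 lower under TMM over all listed miRNAs.

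The hepatocyte signal was present by 3 h and grew at each time. miR-122-5p, the main hepatocyte miRNA, had 643 reads in vehicle, 2127 at 3 h, 6938 at 6 h and 24655 at 12 h. Of all reads in the library these were 1.278% in vehicle, 4.90% at 3 h, 10.0% at 6 h and 35.6% at 12 h. It was 4.65-fold higher (4.26 to 5.09) at 3 h, 10.97-fold higher (10.1 to 11.9) at 6 h and 38.2-fold higher (35.3 to 41.4) at 12 h than in vehicle. The step between successive times was 2.36-fold (2.25 to 2.48) from 3 to 6 h and 3.48-fold (3.39 to 3.58) from 6 to 12 h, comparisons that do not use the vehicle library. Its passenger strand, miR-122-3p, had 0 reads in vehicle, 1 at 3 h, 3 at 6 h and 1 at 12 h, under the minimum throughout.

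miR-192-5p, which liver and intestine make, followed with 436 reads in vehicle, 596 at 3 h, 1569 at 6 h and 2760 at 12 h. Its ratio to vehicle was 1.92 (1.70 to 2.18) at 3 h, under the 2-fold limit, and it was 3.66-fold higher (3.29 to 4.08) at 6 h and 6.31-fold higher (5.70 to 6.99) at 12 h. miR-215, its seed partner and a miRNA best known from intestine, had 2013 reads in vehicle, 1560 at 3 h, 3848 at 6 h and 4623 at 12 h, and only its 12 h value passed, 2.29-fold higher (2.17 to 2.41), a call lost under total reads. Reads of miR-192-5p per read of miR-215 were 0.217 in vehicle, 0.382 at 3 h, 0.408 at 6 h and 0.597 at 12 h, a ratio that needs no scaling. The other 4 vehicle libraries gave 0.178 to 0.379, so the 3 h library stood at the top of that range and the 12 h library well above it.

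The remaining liver miRNAs differed less from vehicle. miR-194-5p, which lies within 10 kb of miR-192 and, as a second copy, of miR-215 in the GRCr8 annotation, had 16 reads in vehicle, 21 at 3 h, 30 at 6 h and 35 at 12 h and was 2.18-fold higher (1.17 to 4.22) at 12 h. miR-101a-3p and miR-101b-3p, which target the chromatin enzyme EZH2, had ratios of 1.00 and 0.912 at 3 h and 0.747 and 1.08 at 12 h, and neither passed at any time. Of the 10 listed liver-enriched miRNAs 5 were measured, and 1, 2 and 3 of these were called higher at 3, 6 and 12 h and none lower. Shares over all 99 were 12.1%, 25.3% and 24.2% higher and 13.1%, 26.3% and 18.2% lower. The median log2 ratio of the 5 was 0.87 at 3 h, 0.91 at 6 h and 1.10 at 12 h, beside 0.07, 0.18 and −0.01 over all 99. At each time the median was the value of miR-194-5p. That miRNA reached the minimum of reads in the treated libraries alone, so its selection favoured a higher ratio. The medians and the 12 h count carry this selection. Across 7 scalings the number called higher ran from 1 to 3 at 3 h and from 2 to 3 at 6 and 12 h. miR-375-3p, a miRNA of gut endocrine cells and pancreatic islets, had 27 reads in vehicle, 29 at 3 h, 73 at 6 h and 60 at 12 h and was 2.75-fold higher (1.75 to 4.45) at 6 h and 2.21-fold higher (1.38 to 3.63) at 12 h, both calls lost under total reads. Of 5 listed gut and pancreas miRNAs, miR-375-3p and miR-215 were the 2 measured.

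The epithelial miRNAs moved late. Of 11 listed, 7 were measured, and 0, 2 and 6 of these were called higher at 3, 6 and 12 h, with none lower. Among all 99, 12.1%, 25.3% and 24.2% were called higher and 13.1%, 26.3% and 18.2% lower. The 6 h count of epithelial miRNAs thus lay near the general share. The 6 called at 12 h were called under all 7 scalings, while the number at 6 h ran from 0 to 3. The median log2 ratio of the 7 measured was 0.40 at 3 h, 0.95 at 6 h and 2.55 at 12 h. miR-200b-3p, miR-429 and miR-200c-3p reached the minimum of reads in the 12 h library alone, so their selection favoured a higher call there. The 12 h count and median carry this selection, and the 12 h median was the value of miR-200c-3p. miR-200a-3p, miR-182 and miR-183-5p, also called higher at 12 h, reached the minimum at 6 h as well.

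miR-200a-3p had 10 reads in vehicle, 16 at 3 h, 25 at 6 h and 160 at 12 h. It was 2.54-fold higher (1.18 to 5.93) at 6 h, a call lost under total reads, and 15.9-fold higher (8.45 to 33.9) at 12 h. Its step from 6 to 12 h alone was 6.27-fold (4.10 to 9.98), whereas from 3 to 6 h the ratio was 1.13 (0.580 to 2.26).

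Of the other family members, 3 had few reads before 12 h and were higher there. miR-200b-3p had 5 reads in vehicle, 4 at 3 h, 7 at 6 h and 46 at 12 h and was 9.17-fold higher (3.66 to 29.6) at 12 h. miR-429 had 1, 1, 6 and 33 reads in vehicle and at 3, 6 and 12 h, and with a single vehicle read its 12 h ratio of 32.9 (5.50 to 1337) is known only within wide bounds. miR-200c-3p, from a different locus, had 4 reads in vehicle, 0 at 3 h, 1 at 6 h and 26 at 12 h, and was 6.48-fold higher (2.25 to 25.5). From 6 to 12 h the rise was 6.44-fold (2.89 to 16.9) for miR-200b-3p, 5.39-fold (2.23 to 15.7) for miR-429 and 25.5-fold (4.19 to 1045) for miR-200c-3p, the last from 1 read. miR-141-3p, the neighbour of miR-200c, had 0, 0, 1 and 0 reads in vehicle and at 3, 6 and 12 h.

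The miR-183 cluster, active in sensory and other epithelia, changed more gradually. miR-182 had 33 reads in vehicle, 31 at 3 h, 71 at 6 h and 131 at 12 h and was 2.19-fold higher (1.43 to 3.41) at 6 h and 3.95-fold higher (2.68 to 5.98) at 12 h. miR-183-5p, within 10 kb of it, had 14 reads in vehicle, 17 at 3 h, 27 at 6 h and 57 at 12 h and was 4.06-fold higher (2.23 to 7.88) at 12 h. miR-96-5p, the third member, had 0 reads in all 4 libraries. miR-203a-3p, a miRNA of skin and other stratified epithelia, was the exception, with 35 reads in vehicle, 16 at 3 h, 28 at 6 h and 23 at 12 h and ratios between 0.643 and 0.813. None of them passed the rule, though total reads called it lower at 12 h. Reads of miR-200a-3p per read of miR-203a-3p were 0.286 in vehicle, 1 at 3 h, 0.893 at 6 h and 6.96 at 12 h, and 0.145 to 0.500 in the other 4 vehicle libraries.

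**Figure D2:**
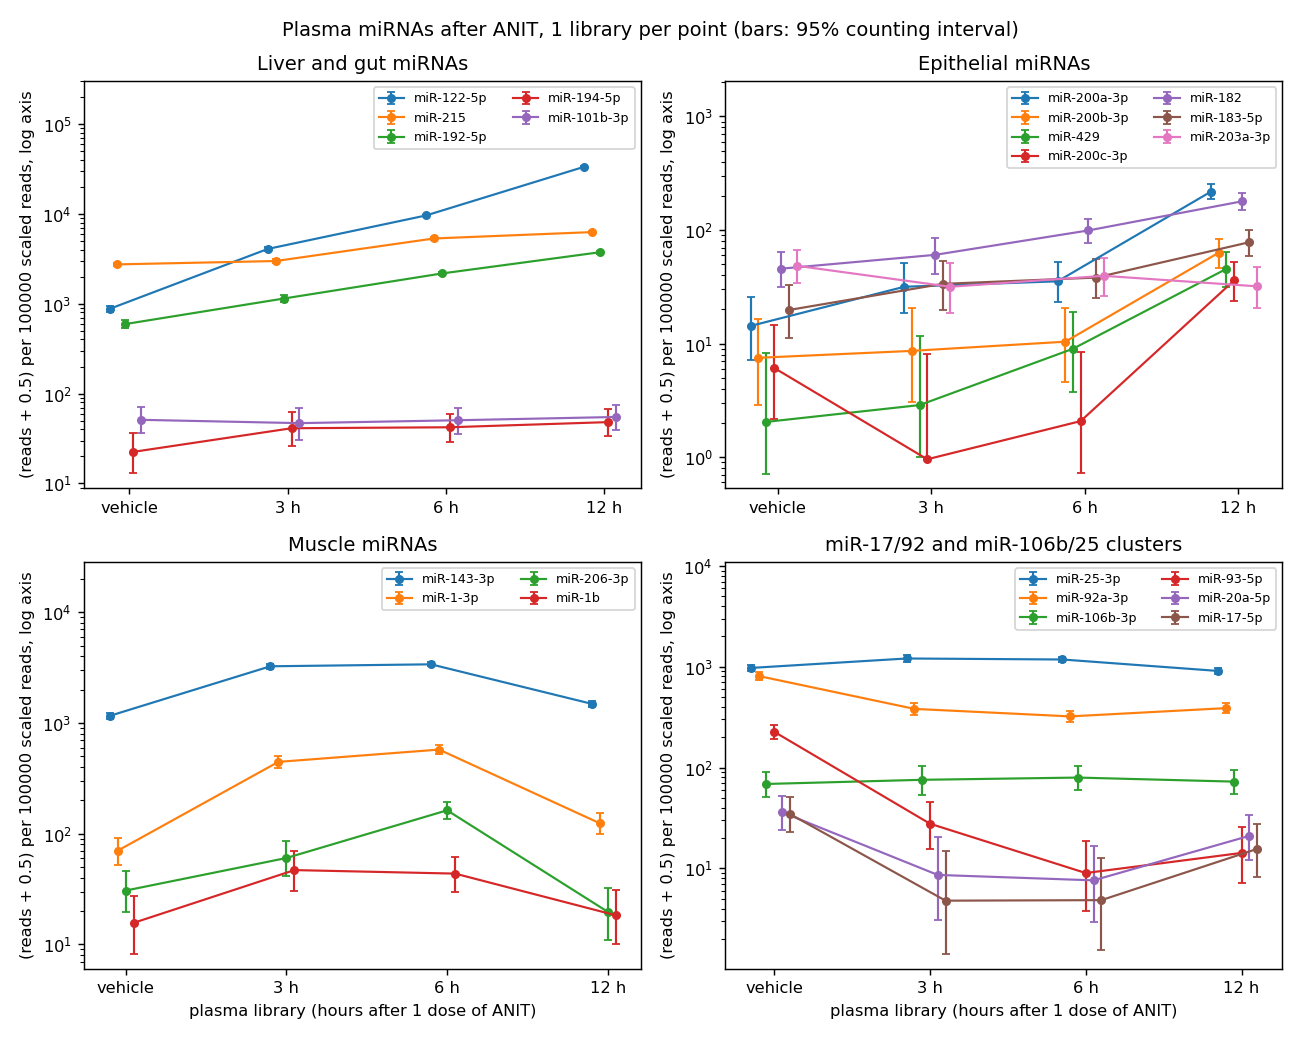
Scaled reads (reads plus 0.5 per 100000 scaled reads, log axis) of liver and gut, epithelial, muscle and miR-17/92 miRNAs in the vehicle, 3 h, 6 h and 12 h libraries, with 95% counting intervals. miR-122-5p climbs at every time, the 4 miR-200 family members step up between 6 and 12 h, and miR-1-3p, miR-206-3p and miR-143-3p are high at 6 h and lower again at 12 h.

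Of the muscle miRNAs, miR-1-3p was higher at 3 and 6 h and miR-206-3p at 6 h, and neither was called at 12 h. miR-1-3p, the main miRNA of heart and skeletal muscle, had 51 reads in vehicle, 232 at 3 h, 415 at 6 h and 91 at 12 h. It was 6.40-fold higher (4.71 to 8.84) at 3 h and 8.27-fold higher (6.17 to 11.3) at 6 h than in vehicle, and its 12 h ratio was 1.78 (1.25 to 2.56). miR-206-3p, which skeletal muscle makes, had 22 reads in vehicle, 31 at 3 h, 117 at 6 h and 14 at 12 h and was 5.41-fold higher (3.41 to 8.96) at 6 h. From 6 to 12 h miR-1-3p fell 4.65-fold (3.70 to 5.90) and miR-206-3p fell 8.53-fold (4.88 to 16.1), so the drop was there without the vehicle library. The ANIT vehicle was low in miR-1-3p, and against the other corn oil vehicle of the series the ratios were 2.94 (2.50 to 3.47) at 3 h and 3.59 (3.13 to 4.13) at 6 h. miR-1b differs from miR-1-3p by 1 base and had 11, 24, 31 and 13 reads in vehicle and at 3, 6 and 12 h, so the division of reads between them is uncertain.

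The list as a whole was not uniform. Of 7 listed muscle miRNAs 3 were measured, 2, 3 and 0 of them called higher at 3, 6 and 12 h, and across 7 scalings the numbers were 2 to 3, 3, and 0 to 1. Among all 99, 12.1%, 25.3% and 24.2% were called higher at these times. The median log2 ratio of the 3 muscle miRNAs was 1.58 at 3 h, 2.41 at 6 h and 0.23 at 12 h, beside 0.07, 0.18 and −0.01 over all 99. miR-1b reached the minimum of reads at 3 and 6 h alone, so its selection favoured a higher call there. The 3 and 6 h counts carry this selection, and the 3 and 12 h medians were the value of miR-1b. miR-1b, counted as higher at 3 and 6 h, lay within the range of the 5 vehicle libraries at all 3 times, and against the other corn oil vehicle its direction turned, with ratios of 0.705 (0.440 to 1.08) at 3 h and 0.621 (0.410 to 0.913) at 6 h. miR-206-3p lay within that range at 3 h and above it at 6 h. miR-133a-3p, which muscle makes together with miR-1, stayed at 6, 1, 4 and 7 reads in vehicle and at 3, 6 and 12 h, and miR-133b-3p at 2, 0, 4 and 0. Reads of miR-1-3p per read of miR-133a-3p were thus 8.50 in vehicle, 232 at 3 h, 104 at 6 h and 13 at 12 h, the 3 h value resting on 1 read of miR-133a-3p. miR-143-3p, of smooth muscle and other mesenchymal cells, had 850 reads in vehicle, 1697 at 3 h, 2446 at 6 h and 1097 at 12 h and was 2.81-fold higher (2.58 to 3.05) at 3 h and 2.93-fold higher (2.70 to 3.17) at 6 h. It then fell 2.27-fold (2.12 to 2.45) from 6 to 12 h, a call lost under TMM over all listed miRNAs. Its cluster partner miR-145-5p stayed under the minimum at 12, 16, 15 and 19 reads. Of 11 listed mesenchymal miRNAs 4 were measured, and the other 3 did not follow it: miR-199a-3p passed at no time, miR-100-5p was 2.74-fold lower (1.76 to 4.38) at 6 h only, and miR-99a-5p was 2.42-fold higher (2.13 to 2.76) at 12 h only.

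The drop after 6 h took in some abundant miRNAs. miR-148a-3p, the leading miRNA of the early libraries, had ratios to vehicle of 1.64, 1.84 and 0.788, none past the rule, yet it was 2.34-fold (2.29 to 2.38) lower at 12 h than at 6 h. miR-148b-3p, with the same seed, was 2.65-fold (1.90 to 3.75) lower, and miR-181a-5p, a lymphocyte miRNA, 2.33-fold (1.85 to 2.94) lower. TMM over all listed miRNAs moved the median log2 ratio of 12 h over 6 h by 0.27. Under it the falls of miR-148a-3p and miR-181a-5p no longer passed the rule, whereas that of miR-148b-3p did. In the other direction miR-100-5p, a regulator of mTOR, was 3.64-fold (2.38 to 5.74) higher at 12 h than at 6 h. miR-146a-5p, which restrains inflammatory signalling, was 2.56-fold (2.06 to 3.19) higher, and miR-378a-3p, encoded in a regulator of mitochondrial metabolism, 2.19-fold (1.956 to 2.45) higher. In all, 11 miRNAs were higher (11.1% of 99) and 12 lower (12.1%) at 12 h than at 6 h, against 2 higher (2.02%) and 2 lower (2.02%) at 6 h than at 3 h. The 2 higher at 6 h than at 3 h were miR-122-5p and miR-206-3p, and the 2 lower were miR-93-5p and miR-98-5p.

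**Figure D3:**
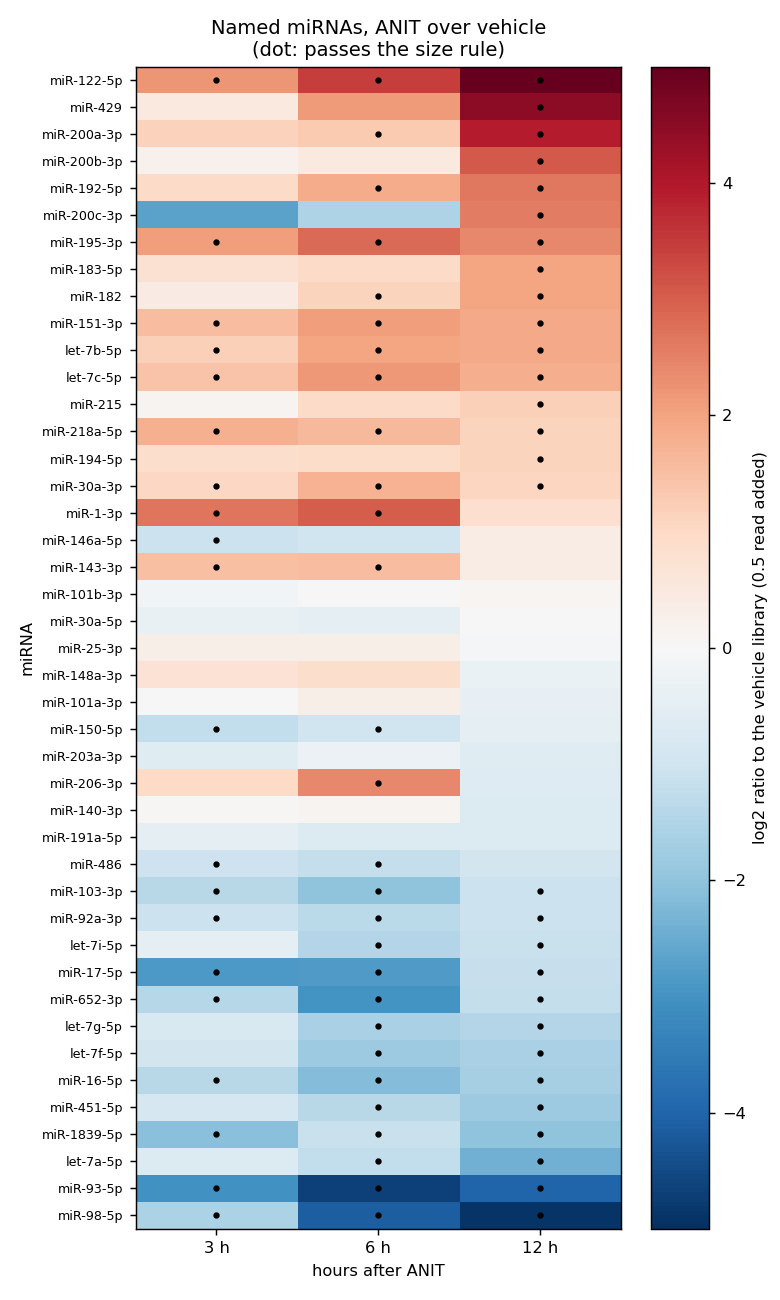
Log2 ratio to the vehicle library (0.5 read added, colour scale) of the 43 named miRNAs, 1 row each, at 3, 6 and 12 h after ANIT, with a dot where the size rule was passed. The upper rows, led by miR-122-5p, are red at 12 h, miR-1-3p has dots at 3 and 6 h and miR-206-3p at 6 h, and miR-93-5p and miR-98-5p are blue at every time.

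The let-7 family split. These miRNAs hold cells in a differentiated state and are abundant in blood. let-7b-5p had 130 reads in vehicle, 209 at 3 h, 503 at 6 h and 491 at 12 h, and let-7c-5p had 326 reads in vehicle, 627 at 3 h, 1449 at 6 h and 1156 at 12 h. let-7b-5p was 2.26-fold higher (1.81 to 2.84) at 3 h, 3.93-fold higher (3.24 to 4.81) at 6 h and 3.76-fold higher (3.10 to 4.60) at 12 h. let-7c-5p was 2.70-fold higher (2.36 to 3.10), 4.52-fold higher (4.00 to 5.11) and 3.53-fold higher (3.12 to 4.01) at the same times. Every other measured member was lower at 6 and 12 h under the scaling used.

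let-7a-5p had 378 reads in vehicle, 167 at 3 h, 158 at 6 h and 72 at 12 h and was 2.35-fold lower (1.95 to 2.85) at 6 h and 5.27-fold lower (4.09 to 6.88) at 12 h. let-7f-5p had 1690 reads in vehicle, 630 at 3 h, 472 at 6 h and 552 at 12 h and was 3.52-fold lower (3.18 to 3.91) and 3.07-fold lower (2.79 to 3.39) at 6 and 12 h. The abundant let-7g-5p and let-7i-5p were 3.04-fold lower (2.80 to 3.30) and 2.72-fold lower (2.55 to 2.91) at 6 h. miR-98-5p, the member encoded beside a let-7f copy on the X chromosome, had 44 reads in vehicle, 10 at 3 h, 2 at 6 h and 1 at 12 h and was 3.13-fold lower (1.55 to 6.97) at 3 h and 21.6-fold lower (5.65 to 184) at 6 h. It had the fewest reads of the 8 members in every library. miR-98-5p reached the minimum of reads in vehicle alone, so its selection favoured a lower call, and it was the 1 member called lower at 3 h. Of 8 measured members 2 were called higher at each time, and 1, 6 and 6 were called lower at 3, 6 and 12 h. At 6 h these numbers were the same under all 7 scalings, at 3 h 1 to 2 were higher and 1 to 4 lower, and at 12 h 5 to 6 were lower, let-7i-5p losing its call under TMM over all listed miRNAs. The median log2 ratio of the 8 was −0.73 at 3 h, −1.52 at 6 h and −1.53 at 12 h. For comparison, 12.1%, 25.3% and 24.2% of all 99 were called higher and 13.1%, 26.3% and 18.2% lower at 3, 6 and 12 h.

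The ANIT vehicle lay at an edge of the 5 vehicle libraries of the series for several members, lowest of the 5 in let-7b-5p and let-7c-5p and highest in let-7a-5p. Even so, let-7b-5p and let-7c-5p were above all 5 vehicles at 3, 6 and 12 h. Among the lower members let-7g-5p and miR-98-5p were below all 5 at 6 and 12 h, let-7d-5p and let-7i-5p at 6 h only and let-7a-5p at 12 h only. let-7f-5p stayed within the vehicle range throughout, at 1591 at 3 h, 764 at 6 h and 1027 at 12 h, against 597 to 5373 in the 5 vehicle libraries (reads per 100000 scaled reads).

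The contrast did not need a scaling, since it held inside each library. let-7b-5p and let-7c-5p together made up 5.34% of let-7 family reads in vehicle, 18.6% at 3 h, 42.1% at 6 h and 34.4% at 12 h, while the family's share of all reads was 17.0% in vehicle, 10.3% at 3 h, 6.71% at 6 h and 6.92% at 12 h. Reads of let-7c-5p per read of let-7a-5p were 0.862 in vehicle, 3.75 at 3 h, 9.17 at 6 h and 16.1 at 12 h. Relative to vehicle this ratio was 4.35-fold higher (3.45 to 5.49) at 3 h, 10.6-fold higher (8.47 to 13.4) at 6 h and 18.6-fold higher (14.0 to 24.97) at 12 h. Vehicle libraries differed in it too: the other 4 gave 0.910 to 5.51, so the 3 h value lay within their range and the 6 and 12 h values above it. let-7b and a let-7c copy are neighbours within 10 kb on chromosome 7 of GRCr8, whereas copies of let-7a, let-7f and let-7d are neighbours on chromosome 17. let-7c-5p and let-7a-5p differ by 1 base, so the counting of close sequences bears directly on this ratio, and its part was not tested.

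**Figure D4:**
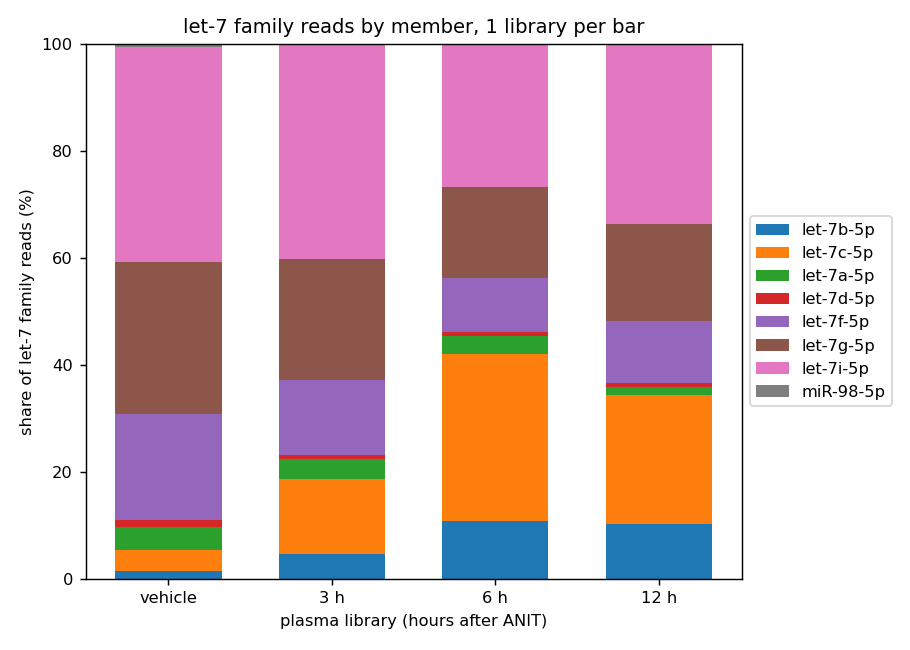
Share of let-7 family reads (%) held by each of the 8 measured members, in stacked bars for the vehicle, 3 h, 6 h and 12 h libraries. The let-7b-5p and let-7c-5p segments at the bottom grow to 42.1% of family reads at 6 h, beside 5.34% in vehicle. That ANIT vehicle was the lowest of the 5 vehicle libraries in both members.

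miR-93-5p and miR-17-5p were lower at 3, 6 and 12 h, and miR-20a-5p at 3 and 6 h. They come from the miR-17/92 and miR-106b/25 clusters, which promote cell growth and are rich in blood cells. miR-93-5p had 166 reads in vehicle, 14 at 3 h, 6 at 6 h and 10 at 12 h and was 8.43-fold lower (4.89 to 15.8) at 3 h, 27.2-fold lower (12.2 to 75.2) at 6 h and 16.7-fold lower (8.84 to 35.4) at 12 h. The ANIT vehicle library itself stood high in this miRNA, being 2.86-fold (2.32 to 3.53) above the other corn oil vehicle, and against that vehicle the fall was 2.80-fold, 9.58-fold and 5.87-fold at 3, 6 and 12 h. miR-25-3p, encoded beside miR-93, passed the rule at no time. It had 714 reads in vehicle, 630 at 3 h, 852 at 6 h and 669 at 12 h and ratios of 1.24, 1.21 and 0.933. Reads of miR-93-5p per read of miR-25-3p were 0.232 in vehicle, 0.0222 at 3 h, 0.00704 at 6 h and 0.0149 at 12 h, and 0.0241 to 0.0960 in the other 4 vehicle libraries, the lowest of which lay close to the 3 h value.

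miR-17-5p had 25 reads in vehicle, 2 at 3 h, 3 at 6 h and 11 at 12 h and was 8.89-fold lower (2.22 to 77.4) at 3 h, 8.20-fold lower (2.50 to 42.4) at 6 h and 2.28-fold lower (1.08 to 5.14) at 12 h. miR-20a-5p had 26 reads in vehicle, 4 at 3 h, 5 at 6 h and 15 at 12 h, low at 3 and 6 h and with a 12 h ratio of 0.575 (0.283 to 1.13), within the range of the 5 vehicle libraries. miR-92a-3p, far more abundant and with a different seed, had 594 reads in vehicle, 199 at 3 h, 232 at 6 h and 286 at 12 h and was 2.12-fold lower (1.80 to 2.51), 2.52-fold lower (2.16 to 2.94) and 2.08-fold lower (1.81 to 2.41) at 3, 6 and 12 h. Of 11 listed miRNAs of these clusters 6 were measured, and 4, 4 and 3 were called lower at 3, 6 and 12 h, with none higher. Under 7 scalings the numbers lower were 3 to 4, 4 and 1 to 4. The median log2 ratio of the 6 was −1.57 at 3 h, −1.79 at 6 h and −0.92 at 12 h. Among all 99, 13.1%, 26.3% and 18.2% were called lower at the same times. miR-93-5p, miR-17-5p and miR-20a-5p reached the minimum of reads in vehicle alone, so their selection favoured a lower call. The median carries this selection too, since miR-20a-5p was a middle value at each time. miR-92a-3p reached the minimum in every library. Its 3 and 12 h calls were lost under TMM over all listed miRNAs, and at 12 h it lay within the range of the 5 vehicle libraries.

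Red cell miRNAs were lower as well. miR-451-5p, which red cell precursors make without Dicer, had 201 reads in vehicle, 80 at 3 h, 75 at 6 h and 57 at 12 h. Its 3 h ratio was 0.560 (0.426 to 0.729), and it was 2.64-fold lower (2.01 to 3.49) at 6 h and 3.54-fold lower (2.63 to 4.84) at 12 h. miR-486 had 2948 reads in vehicle, 1033 at 3 h, 1268 at 6 h and 1548 at 12 h and was 2.03-fold lower (1.89 to 2.18) at 3 h and 2.29-fold lower (2.14 to 2.44) at 6 h, the 3 h call holding under 4 of 7 scalings. miR-16-5p, abundant in red cells and many others, had 57 reads in vehicle, 15 at 3 h, 12 at 6 h and 18 at 12 h and was 4.67-fold lower (2.48 to 9.57) at 6 h. All 3 measured of 7 listed red cell miRNAs were called lower at 6 h under every scaling, and 2 at 3 h and 2 at 12 h under the one used. The shares lower among all 99 were 13.1%, 26.3% and 18.2% at 3, 6 and 12 h. The median log2 ratio of the 3 was −1.02 at 3 h, −1.39 at 6 h and −1.64 at 12 h. miR-16-5p reached the minimum of reads in vehicle alone, so its selection favoured a lower call, and the 12 h median was its value. miR-486 lay within the range of the 5 vehicle libraries at 3 and 12 h and below it at 6 h. miR-451-5p and miR-16-5p lay below that range at all 3 times. The summed share of the whole list, most of it miR-486, was 6.41% in vehicle, 2.61% at 3 h, 1.97% at 6 h and 2.36% at 12 h. This fall moved with that of the miR-17/92 and most let-7 miRNAs, many of which red cells also hold, and the part of red cell RNA in those results was not tested.

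Leukocyte miRNAs were mixed. miR-150-5p, of mature lymphocytes, had 237 reads in vehicle, 71 at 3 h, 116 at 6 h and 174 at 12 h and was 2.37-fold lower (1.81 to 3.14) at 3 h and 2.01-fold lower (1.60 to 2.53) at 6 h, the 6 h call being lost under the authors' factors and both under TMM over all listed miRNAs. miR-146a-5p had 235 reads in vehicle, 79 at 3 h, 117 at 6 h and 305 at 12 h, and it was 2.12-fold lower (1.63 to 2.77) at 3 h but had a ratio of 1.29 (1.09 to 1.54) at 12 h. miR-142-5p was 3.68-fold lower (1.45 to 11.1) at 12 h, with 6 reads at 12 h, against 22 in vehicle. It reached the minimum of reads in vehicle alone, so its selection favoured a lower call. miR-181a-5p was the 1 leukocyte miRNA called higher, 2.16-fold higher (1.68 to 2.80) at 3 h and 2.50-fold higher (1.98 to 3.18) at 6 h. Both calls were lost under total reads, and all its values lay within the range of the 5 vehicle libraries. Of 10 listed leukocyte miRNAs 7 were measured, with 1, 1 and 0 called higher and 2, 3 and 1 called lower at 3, 6 and 12 h, beside 13.1%, 26.3% and 18.2% lower among all 99. Across 7 scalings 0 to 2, 1 to 4 and 1 to 2 were lower, and 0 to 1, 0 to 1 and 0 were higher. The median log2 ratio of the 7 was −0.48 at 3 h, −0.98 at 6 h and 0.05 at 12 h, and the summed share of the listed miRNAs was 1.66% in vehicle, 1.04% at 3 h, 1.07% at 6 h and 1.23% at 12 h. Of the 3 measured platelet and endothelial miRNAs, miR-126a-3p, miR-191a-5p and miR-24-3p, none was called at any time, with ratios between 0.614 (miR-191a-5p at 12 h) and 1.53 (miR-126a-3p at 6 h).

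Several miRNAs outside these lists were higher at all 3 times. miR-151-3p, encoded in an intron of the focal adhesion kinase gene, had 161 reads in vehicle, 336 at 3 h, 668 at 6 h and 609 at 12 h and was 2.93-fold higher (2.42 to 3.56), 4.22-fold higher (3.55 to 5.04) and 3.77-fold higher (3.16 to 4.51) at 3, 6 and 12 h. Against the other corn oil vehicle its ratios were 1.49, 2.02 and 1.81, so only the 6 h call held, though it was above all 5 vehicle libraries at each time. miR-195-3p had only 3 reads in vehicle, 10 at 3 h, 24 at 6 h and 18 at 12 h and was 8.13-fold higher (2.47 to 42.2) at 6 h. It reached the minimum of reads at 6 h alone, so its selection favoured a higher call there. miR-218a-5p, known from motor neurons, had 13 reads in vehicle, 32 at 3 h, 40 at 6 h and 29 at 12 h and was 3.46-fold higher (1.77 to 7.19) at 3 h and 2.22-fold higher (1.12 to 4.66) at 12 h. It reached the minimum in the treated libraries alone, which favoured a higher call too. Against the other corn oil vehicle the 12 h ratio of miR-218a-5p was 0.909 (0.582 to 1.38), so its direction turned with the vehicle, and it was called at no time. Among miRNAs lower at all 3 times were miR-103-3p, of insulin signalling, miR-652-3p and miR-1839-5p, which was 4.50-fold lower (1.89 to 13.0) at 3 h and 4.24-fold lower (2.01 to 9.97) at 12 h. Since miR-652-3p and miR-1839-5p reached the minimum in vehicle alone, their selection favoured a lower call. miR-103-3p and miR-1839-5p lay within the range of the 5 vehicle libraries at all 3 times and miR-652-3p at 12 h, and against the other corn oil vehicle miR-1839-5p was not called at 6 h, at 0.622 (0.348 to 1.05). All 7 listed miRNAs of the miR-30 family, abundant in liver and kidney, were measured, with 1, 1 and 2 called higher and 1, 2 and 0 called lower at 3, 6 and 12 h. Among all 99 the shares were 12.1%, 25.3% and 24.2% higher and 13.1%, 26.3% and 18.2% lower. Across 7 scalings 0 to 1, 1 and 0 to 3 of the family were higher and 1, 2 and 0 to 1 lower, and the median log2 ratio was 0.01 at 3 h, −0.40 at 6 h and 0.50 at 12 h. In that family miR-30b-5p was 5.69-fold lower (1.73 to 29.5) at 3 h and 2.36-fold lower (1.09 to 5.53) at 6 h, while miR-30d-5p, with 330 reads in vehicle, 305 at 3 h, 511 at 6 h and 888 at 12 h, was 2.68-fold higher (2.36 to 3.05) at 12 h, a call lost under total reads. miR-30b-5p too reached the minimum in vehicle alone.

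Of 7 hairpins with both strands measured, 4 had a treated over vehicle ratio of 3p to 5p reads whose interval excluded 1 at all 3 times. A hairpin yields a 5p and a 3p strand, and their ratio inside 1 library needs no scaling. Reads of miR-30a-3p per read of miR-30a-5p were 0.0688 in vehicle, 0.181 at 3 h, 0.314 at 6 h and 0.141 at 12 h, and 0.0619 to 0.129 in the other 4 vehicle libraries. Treated over vehicle this ratio was 2.62 (1.73 to 4.01), 4.57 (3.18 to 6.66) and 2.05 (1.40 to 3.04) at 3, 6 and 12 h. The hairpin miR-30e gave 2.44 (1.29 to 4.76), 4.29 (2.28 to 8.36) and 1.98 (1.14 to 3.44), with all 3 treated libraries above the vehicle range of 1.24 to 3.92. let-7d gave 2.98 (1.64 to 5.46), 4.93 (2.69 to 9.23) and 2.06 (1.07 to 4.01), but only its 6 h ratio of 2.11 exceeded the highest other vehicle, 1.35. For miR-140 the same ratio was 1.97 (1.10 to 3.68) at 3 h, 1.81 (1.10 to 3.04) at 6 h and 0.550 (0.359 to 0.839) at 12 h. Its 6 and 12 h ratios lay within the range of the other 4 vehicle libraries. For miR-27a, miR-423 and miR-455 every interval included 1.

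The ANIT vehicle was also set against the other corn oil vehicle, since every treated over vehicle ratio rests on it. Between it and that library, which is shared by the carbon tetrachloride and dexamethasone models, 1 miRNA (1.01%) was higher and 10 (10.1%) were lower in the ANIT vehicle. The higher one was miR-93-5p, and among the lower ones miR-1b was 4.58-fold lower, miR-1-3p 2.28-fold lower, miR-218a-5p 2.42-fold lower and miR-151-3p 2.07-fold lower. Those same miRNAs are prominent in the comparisons above. With the other corn oil vehicle as baseline, miR-122-5p was 59.2-fold higher and miR-200a-3p 15.2-fold higher at 12 h. Against it 12 were called higher (12.1%) and 22 lower (22.2%) at 3 h. The 6 h counts were 23 higher (23.2%) and 28 lower (28.3%), and the 12 h counts 20 higher (20.2%) and 31 lower (31.3%).

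A stricter rule kept only the calls that also lay outside all 5 vehicle libraries of the series on the same side, after 1 TMM over those and the 3 treated libraries. This left 9 higher (9.09%) and 9 lower (9.09%) at 3 h. At 6 h it left 17 higher (17.2%) and 20 lower (20.2%), and at 12 h 22 higher (22.2%) and 10 lower (10.1%). In reads per 100000 scaled reads, miR-122-5p stood at 5373 at 3 h, 11228 at 6 h and 45865 at 12 h, against 659.7 to 3277 in the 5 vehicle libraries. miR-200a-3p stood at 40.4 at 3 h, 40.5 at 6 h and 298 at 12 h, against 16.7 to 36.2 in the 5 vehicle libraries, so the early values were barely above the vehicles. For let-7c-5p the values were 1584 at 3 h, 2345 at 6 h and 2150.5 at 12 h, against 589.7 to 1368 in the 5 vehicle libraries, all above the vehicles. miR-1-3p had 586 at 3 h, 672 at 6 h and 169 at 12 h, against 74.4 to 361 in the 5 vehicle libraries, above them at 3 and 6 h only. miR-143-3p did not stand apart, at 4286 at 3 h, 3958 at 6 h and 2041 at 12 h, against 1278 to 9409 in the 5 vehicle libraries. miR-93-5p lay below every vehicle at all times, at 35.4 at 3 h, 9.71 at 6 h and 18.6 at 12 h, against 46.8 to 300.3 in the 5 vehicle libraries.

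**Figure D5:**
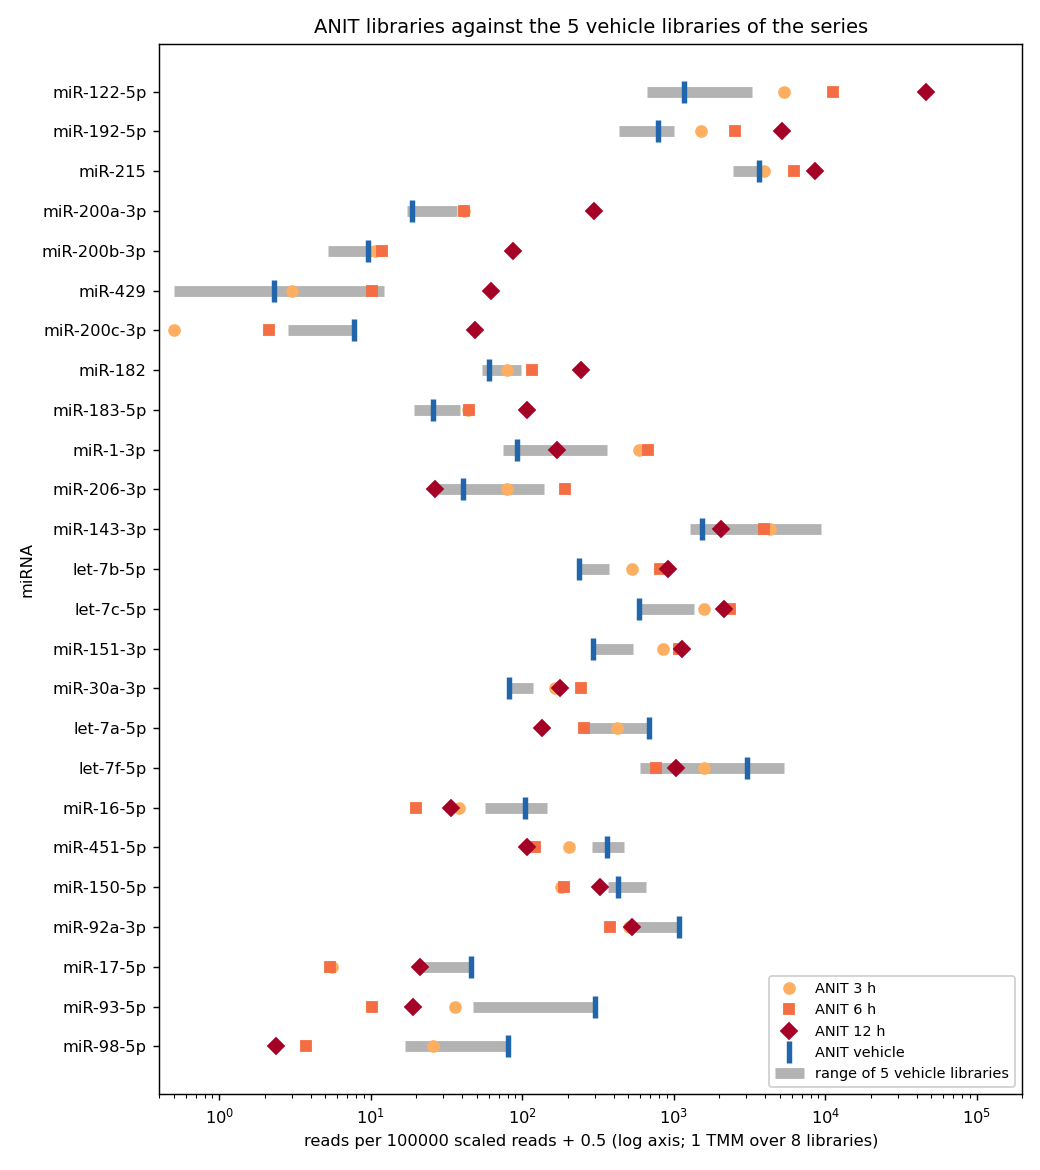
Reads per 100000 scaled reads plus 0.5 (log axis) of 25 miRNAs, 1 row each, in the ANIT 3, 6 and 12 h libraries (symbols) and the ANIT vehicle (blue tick), over the range of the 5 vehicle libraries (grey bar). The 12 h symbols of miR-122-5p and the miR-200 family lie far right of the bars, whereas all symbols of miR-143-3p lie within its bar.

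4,4'-methylenedianiline (MDA), the other cholestasis compound of the series, was given at 250 mg/kg in carboxymethylcellulose and sampled at the same times, with its own vehicle library of 14176 reads. Of 85 miRNAs measured there, 16 (18.8%), 16 (18.8%) and 18 (21.2%) were higher than in the MDA vehicle at 3, 6 and 12 h, and 25 (29.4%), 23 (27.1%) and 20 (23.5%) lower. Dose and solvent differ between the compounds, so values are set side by side. Ratios of ANIT over MDA were computed with 0.5 read added to each count. miR-200a-3p differed in timing. At 3 h its ratio to vehicle was 2.25 (0.960 to 5.55) under ANIT and 33.8 (11.4 to 165) under MDA, the MDA vehicle holding 3 reads, and ANIT over MDA was 0.0762 (0.0206 to 0.282). At 12 h the ratios were 15.9 under ANIT and 18.4 under MDA, and ANIT over MDA was 0.966 (0.283 to 3.29), an interval that includes 1.

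For miR-122-5p the ratios of ANIT over MDA were 1.45 (1.27 to 1.65) at 3 h, 0.921 (0.815 to 1.04) at 6 h and 2.32 (2.06 to 2.62) at 12 h. let-7b-5p was higher under ANIT at 6 h at 3.93, while under MDA its ratio was 0.649 (0.474 to 0.902), and ANIT over MDA was 6.08 (4.23 to 8.74). let-7a-5p was lower at 6 h under both, at 0.425 and 0.204. miR-143-3p was higher at 3 and 6 h under both, at 2.81 and 2.93 under ANIT and 2.49 and 2.44 under MDA, and at 12 h it was 1.29 under ANIT and 2.22 under MDA. miR-215 was opposite at 12 h, a call lost under total reads for ANIT, at 2.29 under ANIT and 0.234 (0.200 to 0.273) under MDA at 12 h, and so was miR-1-3p at 6 h, at 8.27 and 0.186 (0.118 to 0.292).

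By base composition, the 16 sequenced miRNAs with under 40% G and C had median log2 ratios of −0.56, −1.31 and −0.88 at 3, 6 and 12 h. The 42 with 40% to under 50% had −0.01, −0.20 and −0.03, and the 27 with 50% or more had 0.31, 0.33 and 0.05. Across these 85 miRNAs Spearman's rho between G and C content and log2 ratio was 0.17, 0.24 and 0.23, a description over miRNAs that share libraries and families. Of the 6 lower let-7 members, let-7a-5p, let-7f-5p, let-7g-5p and miR-98-5p lie in the lowest class. let-7d-5p and let-7i-5p lie in the middle class at 40.9%, as does let-7c-5p at 40.9%, and let-7b-5p is in that class too. The part of base composition in the let-7 split was not tested.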

How the data were processed

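The deposited tables give, per the file headers, raw read counts per mature rat miRNA and library, and beside them the authors' normalized signal, counts divided by size factors. The submitters' processing notes name DESeq 1.28.0 for that step. A read counter, a miRNA release and a genome build were not given in the sources used here. Of 870 deposited ANIT signal values, 116 (13.3%) differed from count over factor by more than 0.5 read, so counts were used. Libraries were prepared from 200 µL plasma with 15 PCR cycles, per the labels' protocols. Scaling was TMM (edgeR 4.0.16, R 4.3.3) over the 6 ANIT libraries with the 99 measured miRNAs, a set chosen after the factors had been seen, because the 3 h factor depended on it. DESeq2 1.42.0 size factors, the authors' factors, total reads and 3 other TMM fits were alternatives. Intervals are exact Clopper-Pearson binomial (95%, scipy 1.17.1), and log2 ratios added 0.5 read. With 1 column per group no test was possible. Treated over vehicle values of within-library ratios are conditional odds ratios with exact intervals, and ratios of ANIT to MDA have approximate 95% intervals from the 4 counts, each with 0.5 read added. The calling script was tested on simulated counts. The 43 named miRNAs are the 6 highest and 6 lowest called at each time (by the interval bound nearest 1), the 6 most abundant of each library, all measured liver and epithelial list members, the most abundant member of each other list, and those called alike at all 3 times. Further miRNAs, and the within-library ratios, were chosen after their values were seen. The members and lists were chosen with earlier results of these data known.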

Additional observations from a re-analysis of the deposited data

Results flagged for a closer look

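The results listed here were picked out because a miRNA was called in opposite directions under ANIT and MDA at 1 time. The difference between the compounds was not tested across animals, as each value is 1 library over its own vehicle library. At 3 h miR-181a-5p was at 2.16 under ANIT and 0.222 under MDA, and at 6 h at 2.50 and 0.293. At 6 h miR-1-3p was at 8.27 under ANIT and 0.186 under MDA. Both strands of miR-455 differed at 6 h, miR-455-3p at 2.15 under ANIT and 0.171 under MDA and miR-455-5p at 2.02 and 0.256. At 12 h miR-215 was at 2.29 under ANIT and 0.234 under MDA. Under total reads the ANIT calls of miR-181a-5p, miR-455-3p, miR-455-5p and miR-215 were lost, and that of miR-1-3p held. The ratio of the ANIT to the MDA value was 8.54 (5.41 to 13.5) for miR-181a-5p at 6 h. It was largest for miR-1-3p at 6 h, at 44.1 (26.3 to 73.8). Of the 5 vehicle libraries, the ANIT vehicle was lowest and the MDA vehicle highest in both miR-455 strands. Against the other corn oil vehicle their 6 h ratios under ANIT were 1.09 (miR-455-3p) and 1.37 (miR-455-5p), neither called. The other ANIT calls listed held against it, miR-1-3p at 3.59. The ANIT vehicle was below the MDA vehicle in miR-1-3p and miR-181a-5p too, but above it in miR-215. The part of these baselines was not tested.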

How the results depend on the processing

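Of the ratios of named miRNAs recomputed under 8 alternatives (129 under each), 851 moved by less than their counting interval, 180 moved by more and 1 reversed, miR-218a-5p at 12 h, at 0.909 against the other corn oil vehicle. The authors' factors moved none of the 129, DESeq2 size factors 2 and total reads 60. Counts called at 3 h (12 higher, 13 lower) became 7 and 22 under total reads, 22 and 8 with TMM over all listed miRNAs, and 7 and 22 with TMM over 118 miRNAs with 20 reads in any of the 6 libraries. Total reads gave 13 higher at 6 h and 13 higher with 38 lower at 12 h. At 1.5-fold, 22 were higher and 25 lower at 3 h and 31 lower at 12 h. At 3-fold, 5 were higher and 6 lower at 3 h. The 3-fold numbers were 12 higher and 11 lower at 6 h, with 13 higher and 10 lower at 12 h. With at least 50 reads (68 miRNAs), 6 were lower at 3 h, 15 lower at 6 h, and 15 higher with 11 lower at 12 h. Against the other corn oil vehicle 22 were lower at 3 h and 31 at 12 h. For 6 h over 3 h, the 2 higher became 13 with TMM over 118 miRNAs, 15 at 1.5-fold and 0 at 3-fold, and the 2 lower became 8 under total reads, 8 with TMM over all listed, 1 over 118 miRNAs, 1 at 50 reads and 10 at 1.5-fold. For 12 h over 6 h, the 11 higher became 22 with TMM over all listed, 6 at 50 reads, 20 at 1.5-fold and 7 at 3-fold, and the 12 lower became 7 with TMM over all listed, 19 at 10 reads, 19 with no minimum, 20 at 1.5-fold and 2 at 3-fold. The causes were not tested. TMM over all listed and over 118 miRNAs, the joint TMM with the other vehicle and all alternatives for successive times were added after the data were seen. No paired analysis was possible because each group has 1 column and none carries a replicate number, and no replicate could be left out for the same reason. Depth limits miRNAs with few reads: miR-429 and miR-200c-3p rest on 1 and 4 vehicle reads.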
